A study of Homo sapiens with 24 samples.

Results

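The genes described here are components and targets of the NF-kB pathway, read across 24 RNA-seq libraries of the human SK-HEP-1 line. They were picked by name: a row of the deposited gene table is a member when its symbol is one of 40 listed symbols. The list itself was chosen with earlier results of these data known. The rule found 41 rows among 58825 genes, because SOD2 has 2 gene IDs. SK-HEP-1 is a liver tumour line that the labels call endothelial and that carries a CRISPRi system, in which a guide RNA leads a repressor to a promoter. The 6 lines carried a guide against the p53-induced long noncoding RNA PURPL (sg2, sg4, sg5 and sg6, the PURPL lines) or a non-targeting guide (NTC1 and NTC2, the NTC lines). Each line received 10 µM Nutlin-3a, which frees p53 from MDM2, for 6 h, or the vehicle DMSO. Each line and treatment was harvested as 2 biological replicates, per the labels, numbered 1 and 3, which gives 16 PURPL and 8 NTC libraries. The labels do not say whether a line is 1 clone or a pool.

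NF-kB is a family of dimers built from the Rel proteins. In resting cells IkB proteins hold the dimers in the cytoplasm, and the IKK kinases release them by marking IkB for degradation. The freed dimers then induce chemokines, adhesion molecules, survival proteins and their own inhibitors, so the transcripts of NFKBIA and TNFAIP3 are widely read as gauges of pathway activity. Nutlin-3a acts on another factor, p53, which SK-HEP-1 cells keep in working form.

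The promoters below show the kB consensus, the 10-base element that NF-kB dimers bind, in genes whose transcripts behaved differently under Nutlin-3a: BIRC3 rose, NFKBIA fell and TNFAIP3 was not called. Each is given as the 250 bases before the start in RefSeq on GRCh38.p14, 5′ to 3′ on the gene's strand, with the bases that match the consensus in capitals. The BIRC3 window is chr11:102317234-102317483 on the plus strand, with matches that begin 199 and 135 bases before the start. The NFKBIA window is chr14:35404750-35404999 on the minus strand, with 1 match that begins 81 bases before the start. The TNFAIP3 window is chr6:137867009-137867258 on the plus strand, with matches that begin 67 and 55 bases before the start.
BIRC3: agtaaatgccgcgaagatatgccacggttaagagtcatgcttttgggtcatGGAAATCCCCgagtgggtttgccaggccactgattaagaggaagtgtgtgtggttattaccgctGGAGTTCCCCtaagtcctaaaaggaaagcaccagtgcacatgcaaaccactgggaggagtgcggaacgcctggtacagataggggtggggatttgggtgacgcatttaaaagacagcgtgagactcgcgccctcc
NFKBIA: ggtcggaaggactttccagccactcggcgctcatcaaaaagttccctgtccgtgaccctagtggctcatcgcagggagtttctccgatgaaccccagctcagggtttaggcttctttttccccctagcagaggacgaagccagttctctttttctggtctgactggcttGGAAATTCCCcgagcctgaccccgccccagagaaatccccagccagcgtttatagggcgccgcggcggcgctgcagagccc
TNFAIP3: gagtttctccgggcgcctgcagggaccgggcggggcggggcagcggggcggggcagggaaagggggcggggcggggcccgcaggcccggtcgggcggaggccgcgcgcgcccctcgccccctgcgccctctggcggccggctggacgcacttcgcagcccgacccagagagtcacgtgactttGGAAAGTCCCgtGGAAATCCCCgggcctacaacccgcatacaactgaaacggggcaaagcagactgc

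RefSeq windows were found for 33 of the 40 symbols, 53 windows in all, since some genes have more than 1 start. The kB consensus was searched on both strands. A match stood in 17 of the 53 windows (32.1%), against 9.96% of 35116 windows of the same length. By gene, 15 of the 33 had a match. The list names known NF-kB targets, so these shares describe the choice of list and test nothing. The p53 half-site consensus, searched on both strands as well, stood in 1 of the 53 windows (1.89%), against 5.57% of all windows. Among the tested members with a window, 13 had a kB match and 16 had none. Of the 13, 4 were called higher and 2 lower under Nutlin-3a in PURPL lines, and 3 higher and 2 lower in NTC lines. Of the 16, none was called higher and 2 lower in PURPL lines, and 1 higher and 2 lower in NTC lines. CSF1, called higher in both kinds of line, and NFKBIE and IKBKB, called higher in PURPL lines, had no window. They stand in neither set, so these counts cover only part of the members that rose. Over all genes tested 21.0% were called higher and 19.9% lower in PURPL lines, and 12.1% higher and 12.0% lower in NTC lines, and no difference between members with and without a match was tested. A match describes letters in a window and not a bound site, and the p53 match stood in a SOD2 window.

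Library totals, in units of 1e6 estimated counts, ran between 66.4 and 92.1. One library, sg2 with Nutlin-3a at harvest 1, stood apart: its median correlation with libraries of the same treatment was 0.902, against 0.991 to 0.998 for the others, and its values rose with GC content by 1.24 on the log2 scale per 10 points, against -0.158 to 0.267. It is left out of the tests below, so sg2 with Nutlin-3a is 1 library and PURPL lines have 7 Nutlin-3a libraries, and values with it are given in their own paragraphs. The highest slopes among the 23 others were 0.267 in sg5 with Nutlin-3a at harvest 3 and 0.243 in NTC1 with DMSO at harvest 3. PURPL averaged 2.01 ± 0.54 CPM in PURPL lines and 33.1 ± 3.8 CPM in NTC lines with Nutlin-3a (SD, n = 7 and 4 libraries). With DMSO it averaged 0.551 ± 0.201 CPM in PURPL lines and 8.27 ± 1.18 CPM in NTC lines (SD, n = 8 and 4). The p53 targets CDKN1A and MDM2 rose by 3.89 and 3.25 on the log2 scale under Nutlin-3a in PURPL lines, and by 3.62 and 3.25 in NTC lines. The defining endothelial genes PECAM1 and CDH5 reached at most 0.0284 and 0.0589 CPM, the hepatocyte gene ALB at most 0.0145 CPM and the leukocyte gene PTPRC at most 0.128 CPM. ENG, of the same endothelial list, had 20.5 to 50.4 CPM, so the defining markers PECAM1 and CDH5 are nearly absent while ENG is present. CD68, of the same leukocyte list as PTPRC, had 1070 to 2499 counts in the 23 libraries, and that list summed to 16.0 to 33.5 CPM. SERPINA1 and AFP, of the same hepatocyte list as ALB, had 43 to 187 and 63 to 150 counts. Of 6 RNAs read as signs of RNA quality (NEAT1, MALAT1 and 4 mitochondrial transcripts), 5, all but MALAT1, were called higher under Nutlin-3a in PURPL and in NTC lines. Their summed level was 5491 to 6575 CPM with Nutlin-3a against 4143 to 5124 CPM with DMSO in PURPL lines, and 5650 to 7412 CPM with Nutlin-3a against 3907 to 4179 CPM with DMSO in NTC lines. A response of these RNAs to Nutlin-3a and a change in RNA quality cannot be told apart here. The part of these RNAs in the results below was not tested.

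SK-HEP-1 cells transcribed most of the pathway before treatment. Per kilobase of exon, the ubiquitin ligase BIRC2 (cIAP1) and the TAK1-binding adaptor TAB2 stood highest, at 37.6 and 29.1 CPM per kb in PURPL lines and 36.8 and 27.0 CPM per kb in NTC lines with DMSO. The kinases MAP3K7 (TAK1) and CHUK (IKK alpha) followed at 12.2 ± 1.5 and 11.6 ± 1.6 CPM per kb in NTC lines (SD, n = 4), a gap smaller than either spread. NFKB1, which encodes p105 and p50, had 9.76 ± 0.49 CPM per kb and NFKBIA (IkB alpha) 7.61 ± 0.63 CPM per kb in the same libraries. The next 3 in the order, CYLD, TNIP1 and RELA at 7.35 ± 1.03, 6.21 ± 1.22 and 6.16 ± 1.19 CPM per kb, did not differ beyond their spread. CSF1, the largest mover below, had only 0.198 CPM per kb in PURPL lines and 0.187 CPM per kb in NTC lines with DMSO. The adhesion target ICAM1 stood near RELA at 5.92 CPM per kb, and 5 other cytokine or adhesion targets were barely read. Over the 23 libraries CX3CL1 had no count, VCAM1 and TNF had at most 4 and 1 counts in a library, CCL20 and CSF2 at most 8 and 6, and the second SOD2 ID at most 3. These 6 rows passed no filter on low counts, and the other 35 rows were tested. CPM are counts per 1e6 after TMM scaling, and in such bulk RNA fewer expressing cells and less RNA per cell cannot be told apart.

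**Figure D1:**
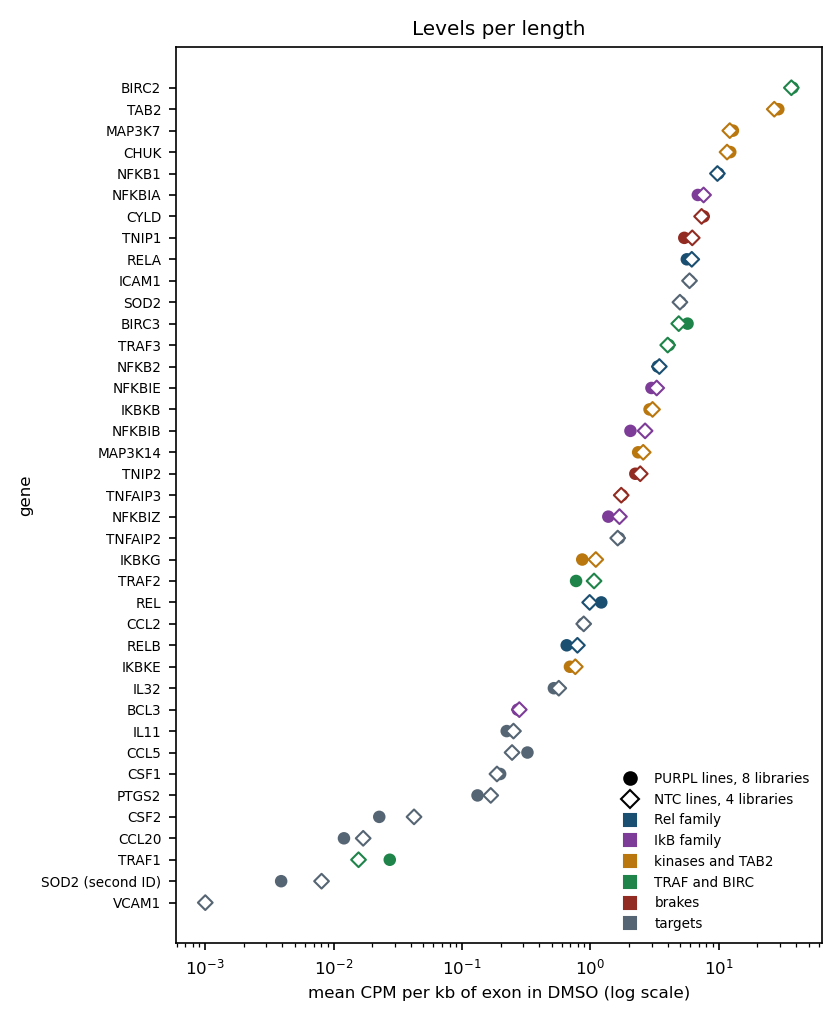
Mean CPM per kb of exon in DMSO libraries on a log axis, PURPL lines as filled circles and NTC lines as open diamonds, coloured by role. BIRC2 stands at 37.6 CPM per kb in PURPL lines and 36.8 in NTC lines, and CX3CL1 and TNF, at 0 in NTC lines, are not drawn.

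Under Nutlin-3a a few members changed, while most moved little. Among those called, CSF1 and BIRC3 rose in both kinds of line and TNIP1 in PURPL lines. TRAF1 rose and TRAF2 fell in NTC lines. In PURPL lines 7 of the 35 tested members rose and 4 fell, a share of 31.4%, against 40.9% of the 15798 genes tested (21.0% rose and 19.9% fell). In NTC lines 5 rose and 4 fell, a share of 25.7%, against 24.2% of all genes (12.1% rose and 12.0% fell). The members' median log2 change was 0.02 in PURPL lines and 0.02 in NTC lines, beside 0.04 and 0.0054 over all genes. In size, the members' median was 0.20 on the log2 scale in PURPL lines and 0.17 in NTC lines, beside 0.20 and 0.19 over all genes. A change under 0.5 on the log2 scale was seen for 32 of 35 members in PURPL lines and 30 of 35 in NTC lines. Calls are edgeR's quasi-likelihood test with Benjamini-Hochberg adjustment over all genes at 0.05, on the spread between harvests of a line. Where 1 harvest is left out below, no group has more than a single library. The model then has a term for each line in place of group means. Its calls differ from these in both the data and the model. Without harvest 3, sg2 with Nutlin-3a has no library, so the PURPL lines with Nutlin-3a are then sg4, sg5 and sg6. CSF1, BIRC3, NFKBIZ and CYLD rose in both kinds of line, NFKBIA, SOD2 and TRAF3 fell in both, and 13 members were called in at least 1. Of the 15798 genes, 1623 rose in both, 1692 fell in both and 6959 were called in at least 1. Counted over both directions, the members' shares called in both and in at least 1 were no larger than those of all genes. No gene, member or not, was called in opposite directions.

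**Figure D2:**
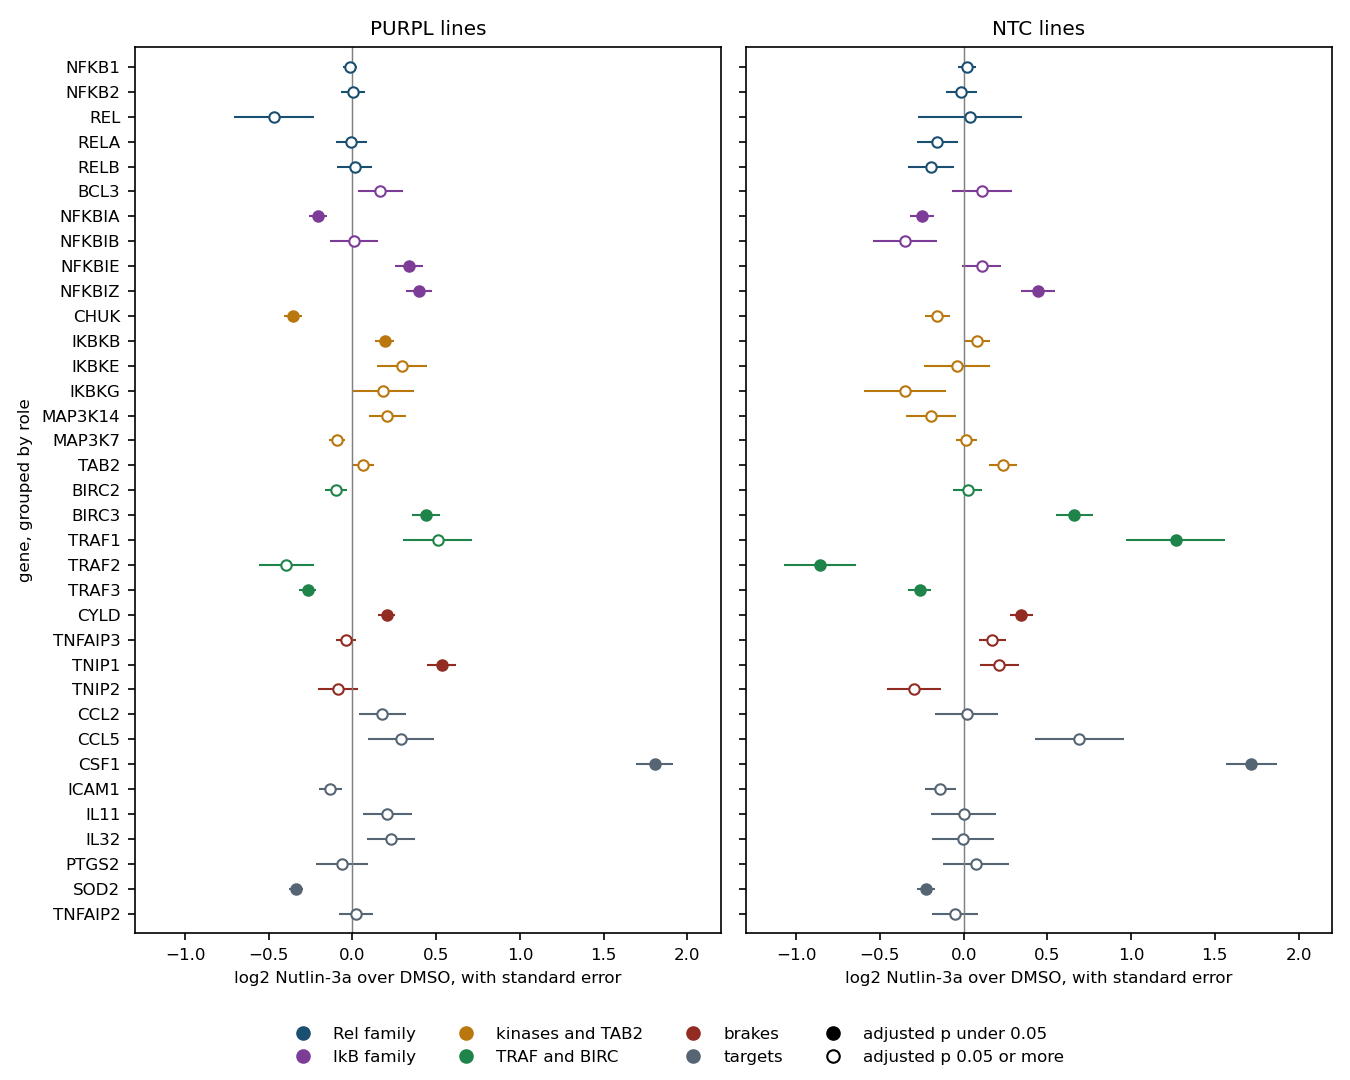
Log2 change under Nutlin-3a over DMSO with its standard error for the 35 tested members, grouped by role, in PURPL lines and in NTC lines (23 libraries). Filled points passed the adjusted threshold, and CSF1 lies farthest right in both panels at 1.80 and 1.72.

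None of the 5 Rel genes, which encode the DNA-binding subunits, was called. RELA (p65) had 26.2, 29.4 and 38.9 CPM as its lowest, median and highest values in PURPL lines with Nutlin-3a, against 27.2, 31.5 and 34.4 CPM with DMSO. Its NTC values were 30.4, 26.0, 30.0 and 33.1 CPM with Nutlin-3a, against 34.3, 29.9, 42.6 and 27.9 CPM with DMSO. The ranges overlapped in both kinds of line, and the highest values came from NTC1 with DMSO and sg5 with Nutlin-3a, both at harvest 3, the pair of libraries with the highest GC slopes. The longest RELA transcript is 57.1% GC. With the GC trend of each library removed, the RELA log2 change was -0.093 in PURPL lines and -0.071 in NTC lines. The edgeR adjusted p were 0.106 and 0.412. NFKB1 had 58.6, 61.7 and 62.8 CPM in PURPL lines with Nutlin-3a, against 57.3, 62.3 and 64.7 CPM with DMSO. NTC lines had 62.9, 59.3, 62.2 and 63.5 CPM with Nutlin-3a, against 63.6, 61.4, 56.7 and 62.6 CPM with DMSO. All 4 groups overlapped. The log2 change of RELA was -0.0063 ± 0.092 in PURPL lines and -0.16 ± 0.12 in NTC lines, and that of NFKB1 was -0.014 ± 0.041 and 0.02 ± 0.05 (SE), with edgeR adjusted p of 0.965, 0.392, 0.811 and 0.817. Without harvest 3 RELA was called in NTC lines (log2 -0.21, adjusted p = 0.0117). NFKB2 and RELB, the pair of the alternative pathway, were not called either, with log2 changes of 0.003 and 0.01 in PURPL lines and -0.015 and -0.19 in NTC lines.

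REL (c-Rel), which is best known from lymphocytes, had the largest standard errors of the family. Its log2 change was -0.47 ± 0.24 in PURPL lines, with an edgeR adjusted p of 0.128, and 0.04 ± 0.31 in NTC lines, with 0.949. It had 8.48, 12.1 and 14.6 CPM in PURPL lines with Nutlin-3a, against 13.8, 16.1 and 17.7 CPM with DMSO, and 12.7, 15.1, 11.5 and 11.9 CPM in NTC lines with Nutlin-3a, against 15.8, 17.0, 3.20 and 16.0 CPM with DMSO. The low value belongs to NTC1 at harvest 3, with 300 counts where the other DMSO libraries had 980 to 1547. REL shares its strand and part of its length with AC010733.2, which had 549 counts in that library and 398 to 744 in the other DMSO libraries. The REL estimates were not whole numbers in 24 of 24 libraries, so how its reads were split cannot be told from the table.

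Among the IkB proteins and their relatives, which hold or steer the Rel dimers, the classical feedback inhibitor fell slightly. NFKBIA had 13.2, 14.4 and 15.4 CPM in PURPL lines with Nutlin-3a, against 15.2, 16.2 and 17.5 CPM with DMSO. In NTC lines it had 15.3, 15.7, 14.6 and 15.2 CPM with Nutlin-3a, against 17.2, 17.9, 20.2 and 17.0 CPM with DMSO. The NTC groups did not overlap and the PURPL groups met only at their edges. Set side by side by line and harvest number, NFKBIA was lower with Nutlin-3a in 7 of 7 and 4 of 4 comparisons. Whether harvest numbers pair libraries was not settled, and 4 of 4 already follows from the lack of overlap. NFKBIA fell by 0.20 ± 0.05 on the log2 scale in PURPL lines and by 0.25 ± 0.07 in NTC lines (SE), with edgeR adjusted p of 0.00623 and 0.0169. The NTC call was lost without line NTC1 (log2 -0.25, adjusted p = 0.106) or harvest 1 (-0.32, 0.138), and without the library NTC1 DMSO at harvest 3 (log2 -0.21, adjusted p = 0.0501), NTC2 DMSO at harvest 1 (-0.23, 0.0639), NTC1 Nutlin-3a at harvest 3 (-0.23, 0.0668) or NTC2 Nutlin-3a at harvest 3 (-0.24, 0.0582). NFKBIZ (IkB zeta), a nuclear relative that acts with p50 on a subset of targets, rose by 0.40 ± 0.08 in PURPL lines and 0.44 ± 0.10 in NTC lines on the log2 scale, with adjusted p of 0.000528 and 0.00374. It had 9.40 to 13.3 CPM in PURPL lines with Nutlin-3a, against 7.42 to 9.02 CPM with DMSO, and 11.7 to 15.2 CPM in NTC lines with Nutlin-3a, against 8.84 to 11.4 CPM with DMSO, so the groups did not overlap in either. Its estimates were not whole in 16 of 24 libraries. The NTC call of NFKBIZ was lost without line NTC1 (log2 0.33, adjusted p = 0.0987), line NTC2 (0.43, 0.0538) or harvest 1 (0.39, 0.125). NFKBIE (IkB epsilon) rose by 0.34 ± 0.09 in PURPL lines (adjusted p = 0.00487) and had a log2 change of 0.11 ± 0.11 in NTC lines (0.549), where it was called with the GC trend removed (0.25, 0.0154). Without harvest 1 neither NFKBIE (0.28, 0.242) nor NFKBIA (-0.20, 0.114) was called in PURPL lines. NFKBIB and BCL3 were not called.

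The kinase layer moved little. CHUK fell by 0.36 ± 0.06 on the log2 scale in PURPL lines, where it had 60.5 to 73.3 CPM with Nutlin-3a against 74.7 to 95.8 CPM with DMSO, without overlap. In NTC lines its change was -0.16 ± 0.07, with 68.5 to 73.7 CPM with Nutlin-3a against 67.1 to 93.4 CPM with DMSO (edgeR adjusted p of 6.72e-05 in PURPL lines and 0.136 in NTC lines). CHUK overlaps ERLIN1 on the same strand. IKBKB (IKK beta), the main kinase of the classical pathway, rose by 0.19 ± 0.06 in PURPL lines (adjusted p = 0.0142) and had a change of 0.08 ± 0.08 in NTC lines (0.494). In NTC lines CHUK was called without line NTC1 (log2 -0.39, adjusted p = 0.0126) or harvest 3 (-0.17, 0.00793), or with the GC trend removed (-0.18, 0.0154). The IKBKB call was lost without harvest 1 (log2 0.18, adjusted p = 0.148), line NTC1 (log2 0.15, adjusted p = 0.0548), NTC2 (0.15, 0.0797) or sg5 (0.18, 0.0554), or without sg4 Nutlin-3a at harvest 1 (0.15, 0.0637). The scaffold IKBKG (NEMO), whose estimates were not whole in 11 of 24 libraries, the kinases IKBKE, MAP3K14 (NIK) and MAP3K7, and TAB2 were not called. MAP3K14 overlaps MAP3K14-AS1 on the other strand, as NFKBIB does SIRT2, and reads of such pairs cannot be told apart if strand was ignored in counting.

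Among the receptor-proximal adaptors and ligases, BIRC3 rose and TRAF3 fell in both kinds of line. BIRC3 (cIAP2), a ubiquitin ligase and a familiar NF-kB target, had 49.8, 57.6 and 64.7 CPM as lowest, median and highest in PURPL lines with Nutlin-3a, against 35.6, 43.9 and 52.7 CPM with DMSO. NTC lines had 54.5, 60.2, 61.1 and 54.2 CPM with Nutlin-3a, against 36.7, 42.0, 27.3 and 40.7 CPM with DMSO. The NTC groups did not overlap, and the PURPL groups overlapped through the sg2 DMSO library of harvest 1. BIRC3 rose 1.36-fold in PURPL lines (log2 0.44 ± 0.08, edgeR adjusted p = 0.00046) and 1.58-fold in NTC lines (log2 0.66 ± 0.11, adjusted p = 0.00034). It was higher with Nutlin-3a in 7 of 7 and 4 of 4 comparisons by line and harvest number. Whether harvest numbers pair libraries was not settled, and 4 of 4 already follows from the lack of overlap. Without line NTC1 the NTC log2 change was 0.40 with an adjusted p of 0.0606. The lowest BIRC3 library, NTC1 DMSO at harvest 3, is in the pair with high GC slopes. The longest BIRC3 transcript is 34.8% GC. With the GC trend of each library removed, BIRC3 rose by 0.52 in PURPL lines and 0.64 in NTC lines on the log2 scale.

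TRAF2, the adaptor that couples TNF receptors to the cIAP ligases, fell in NTC lines. It had 1.46, 2.14 and 4.23 CPM in PURPL lines with Nutlin-3a, against 2.45, 2.78 and 3.44 CPM with DMSO. NTC lines had 2.61, 1.51, 2.02 and 2.13 CPM with Nutlin-3a, against 4.07, 3.25, 6.16 and 2.18 CPM with DMSO. The groups overlapped in both kinds of line. The highest libraries were sg5 with Nutlin-3a and NTC1 with DMSO at harvest 3, which had the highest GC slopes. The longest TRAF2 transcript is 61.3% GC. TRAF2 fell by 0.86 ± 0.22 on the log2 scale in NTC lines (edgeR adjusted p = 0.0075) and had a change of -0.40 ± 0.16 in PURPL lines (0.0654). The NTC call was lost without line NTC1 (log2 -0.64, adjusted p = 0.200) or harvest 1 (-0.84, 0.284). In PURPL lines TRAF2 was called without sg5 Nutlin-3a at harvest 3 (-0.54, adjusted p = 0.00767), NTC1 DMSO at harvest 3 (-0.42, 0.0473), line sg5 (-0.54, 0.0188) or harvest 3 (-0.32, 0.0330). It was also called there with harvest number as a block (-0.42, 0.0450), with DESeq2 (-0.40, 0.0427) and with no filter on low counts (-0.41, 0.00311). With the GC trend removed, TRAF2 fell by 0.55 in PURPL lines and 0.71 in NTC lines, with adjusted p of 0.000116 and 0.000199. The fall of TRAF3, which restrains NIK, was 0.27 ± 0.05 in PURPL lines and 0.26 ± 0.07 in NTC lines, with adjusted p of 0.000576 and 0.0101. TRAF3 had 26.1 to 30.4 CPM with Nutlin-3a against 31.1 to 36.7 CPM with DMSO in PURPL lines, and 26.2 to 29.1 CPM with Nutlin-3a against 30.8 to 35.8 CPM with DMSO in NTC lines, without overlap. The NTC call of TRAF3 was lost without NTC1 Nutlin-3a at harvest 3 (log2 -0.23, adjusted p = 0.0583), line NTC2 (-0.32, 0.0571) or harvest 1 (-0.24, 0.145), or with the GC trend removed (-0.21, 0.0510). TRAF1, an NF-kB target at the edge of detection with 6 to 28 counts in each of the 23 libraries, rose by 1.27 ± 0.30 in NTC lines (adjusted p = 0.00476) and had a change of 0.51 ± 0.21 in PURPL lines (0.0609). Its NTC call was lost without line NTC1 (log2 1.18, adjusted p = 0.0707), line NTC2 (1.23, 0.0699) or harvest 3 (0.83, 0.258), and in PURPL lines it was called in 7 of the alternatives. BIRC2 was not called.

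Of the 4 brakes on the pathway, CYLD rose in both kinds of line and TNIP1 in PURPL lines. TNFAIP3 (A20), the deubiquitinating feedback inhibitor, had 6.53, 8.16 and 10.6 CPM in PURPL lines with Nutlin-3a, against 6.34, 8.51 and 11.4 CPM with DMSO. NTC lines had 10.5, 9.18, 10.8 and 9.22 CPM with Nutlin-3a, against 9.07, 8.27, 8.66 and 9.14 CPM with DMSO. The PURPL groups overlapped almost wholly and the NTC groups lay just apart, and the log2 changes of -0.04 ± 0.06 and 0.17 ± 0.08 were not called (edgeR adjusted p of 0.633 and 0.141). Levels differed between lines with either treatment: among PURPL lines the means with Nutlin-3a and with DMSO were 10.6 and 11.2 CPM in sg2, 9.44 and 9.54 in sg4, 6.86 and 7.08 in sg5, and 7.62 and 7.71 in sg6.

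TNIP1 (ABIN1), which brings A20 to ubiquitin chains, also rose in PURPL lines. It had 36.3, 46.2 and 61.5 CPM in PURPL lines with Nutlin-3a, against 25.5, 31.2 and 35.2 CPM with DMSO. In NTC lines it had 43.4, 37.5, 40.2 and 43.9 CPM with Nutlin-3a, against 37.8, 31.0, 45.3 and 30.0 CPM with DMSO. The PURPL groups did not overlap, and the NTC groups overlapped through both NTC1 DMSO libraries. TNIP1 rose 1.45-fold in PURPL lines (log2 0.53 ± 0.09, edgeR adjusted p = 0.0001), and its change in NTC lines was 0.21 ± 0.12 (0.201). Without harvest 3 the NTC change was 0.21 with an adjusted p of 0.0026, and without line NTC2 it was -0.049 with 0.878. With the GC trend removed it rose in both, by 0.42 in PURPL lines and 0.33 in NTC lines, with adjusted p of 8.57e-09 and 1.48e-05. CYLD, a deubiquitinase that restrains IKK, rose by 0.20 ± 0.05 in PURPL lines and 0.34 ± 0.07 in NTC lines (adjusted p of 0.00496 and 0.00152). It had 99.4 to 123 CPM with Nutlin-3a against 91.3 to 106 CPM with DMSO in PURPL lines, and 115 to 124 CPM with Nutlin-3a against 76.4 to 105 CPM with DMSO in NTC lines. Only the NTC groups lay apart. Without line NTC1 the CYLD change in NTC lines was 0.10, with an adjusted p of 0.441, and without harvest 1 CYLD was called in neither (0.18 in PURPL lines and 0.42 in NTC lines, adjusted p of 0.261 and 0.131). TNIP2 was not called.

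CSF1, the macrophage colony-stimulating factor, showed the largest change of any tested member in both kinds of line. It had 2.90, 3.86 and 4.10 CPM in PURPL lines with Nutlin-3a, against 0.851, 1.02 and 1.41 CPM with DMSO. In NTC lines it had 3.56, 2.86, 3.60 and 3.39 CPM with Nutlin-3a, against 0.957, 1.17, 1.09 and 0.839 CPM with DMSO. Every Nutlin-3a library lay above every DMSO library. CSF1 rose 3.49-fold in PURPL lines (log2 1.80 ± 0.11, edgeR adjusted p = 1.68e-09) and 3.29-fold in NTC lines (log2 1.72 ± 0.15, adjusted p = 3.6e-07). Its counts lay between 58 and 317 in the 23 libraries. By line, the fold was 2.95 in sg2, 4.11 in sg4, 3.55 in sg5, 3.49 in sg6, 3.50 in NTC1 and 3.10 in NTC2. The call was made in each of 38 alternatives for each kind of line, with log2 changes of 1.70 to 2.14 in PURPL lines and 1.55 to 1.86 in NTC lines.

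**Figure D3:**
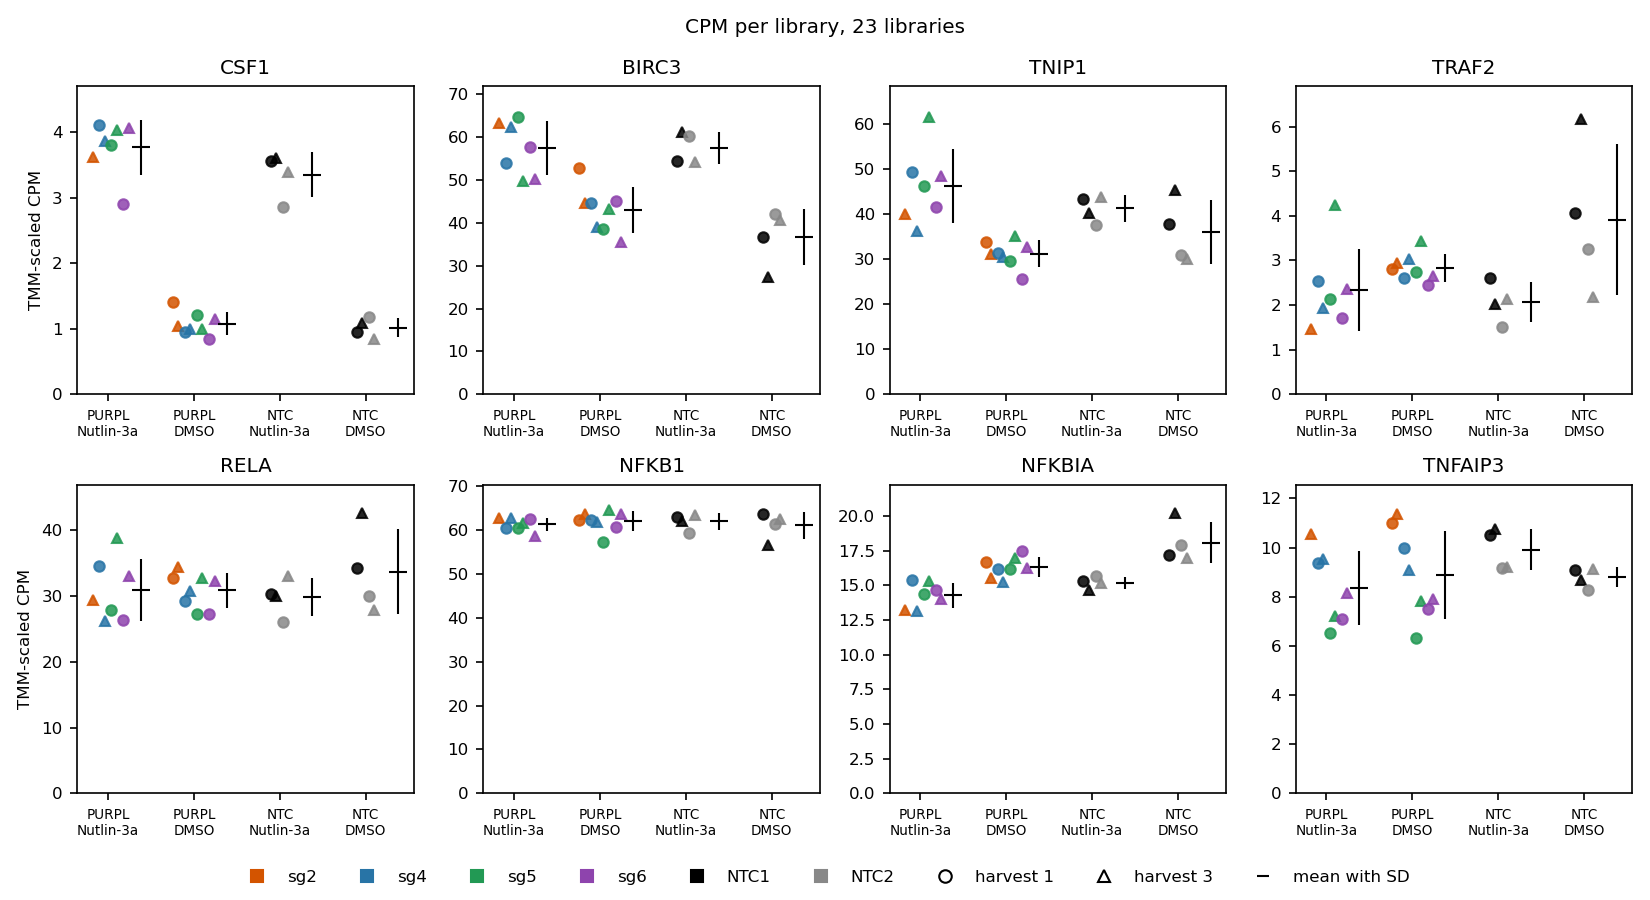
TMM-scaled CPM of 8 members in each of 23 libraries, coloured by line, with circles for harvest 1, triangles for harvest 3 and the mean with SD at the right of each group. CSF1 separates by treatment in both kinds of line, NFKB1 lies between 56.7 and 64.7 CPM throughout, and TNFAIP3 has its lowest line means in sg5.

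Of the other 8 tested targets, SOD2 fell and 7 were not called. SOD2, the mitochondrial superoxide dismutase, fell by 0.34 ± 0.04 on the log2 scale in PURPL lines and by 0.23 ± 0.05 in NTC lines (edgeR adjusted p of 5.33e-06 and 0.00578). It had 62.3 to 70.3 CPM with Nutlin-3a against 79.6 to 88.6 CPM with DMSO in PURPL lines, and 67.6 to 72.7 CPM with Nutlin-3a against 73.2 to 90.4 CPM with DMSO in NTC lines, without overlap. SOD2 overlaps the antisense gene WTAP and its own second ID, and its estimates were not whole in 8 of 24 libraries. Without line NTC2 the NTC change of SOD2 was -0.15, with an adjusted p of 0.184, and without harvest 1 it was -0.24, with 0.226. The adhesion molecule ICAM1, one of the best known NF-kB targets, had 16.5 to 24.8 CPM with Nutlin-3a against 18.3 to 29.6 CPM with DMSO in PURPL lines, and 18.8 to 20.7 CPM with Nutlin-3a against 18.6 to 26.1 CPM with DMSO in NTC lines. Its log2 changes of -0.13 ± 0.07 and -0.14 ± 0.09 were not called. The chemokines CCL2 and CCL5, the cytokines IL11 and IL32, the prostaglandin synthase PTGS2 and TNFAIP2 were not called in either kind of line. Their log2 changes lay between -0.06 and 0.29 in PURPL lines and between -0.05 and 0.69, the CCL5 value, in NTC lines. CCL5 had 22 to 72 counts in the 23 libraries. It was higher with Nutlin-3a in 7 of 7 PURPL and 4 of 4 NTC comparisons by line and harvest number. Its groups overlapped in both kinds of line.

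Beyond the 40 symbols, other genes of the pathway were read from lists of 38 further components and 30 further targets. Both lists were chosen with earlier results of these data known, so their shares called are a description. Of the components, 34 were tested: 9 rose and 7 fell in PURPL lines, and 5 rose and 3 fell in NTC lines, shares of 47.1% and 23.5% against 40.9% and 24.2% of all genes. BCL10, the adaptor of the CARD-BCL10-MALT1 complex, rose by 0.91 ± 0.05 in PURPL lines and 0.97 ± 0.07 in NTC lines on the log2 scale, with edgeR adjusted p of 9.23e-10 and 4.61e-08. The double-stranded RNA receptor TLR3 rose by 1.70 ± 0.12 in PURPL lines and 1.64 ± 0.16 in NTC lines (adjusted p of 4.57e-09 and 9.1e-07). MALT1, the protease partner of BCL10, fell by 0.53 ± 0.06 and 0.36 ± 0.08 (3.13e-06 and 0.00351), and OTULIN, which trims linear ubiquitin, fell by 0.36 ± 0.05 and 0.24 ± 0.07 (3.52e-05 and 0.0182). TAB3, a relative of TAB2, rose by 0.45 ± 0.07 in PURPL lines and 0.59 ± 0.10 in NTC lines (0.000118 and 0.000296), and the kinase TBK1 by 0.27 ± 0.05 and 0.35 ± 0.07 (0.000562 and 0.00151).

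Of the further targets, 27 were tested: 13 rose and 4 fell in PURPL lines, 63.0% called against 40.9% of all genes, and 9 rose and 2 fell in NTC lines, 40.7% called against 24.2% of all genes. Since this list was chosen with earlier results of these data known, its larger share is no independent test of a target response. The cytokine IL1B had 104 to 150 CPM with Nutlin-3a against 21.3 to 39.1 CPM with DMSO in PURPL lines, and 104 to 121 CPM with Nutlin-3a against 24.4 to 30.6 CPM with DMSO in NTC lines. It rose by 2.23 ± 0.10 on the log2 scale in PURPL lines and 2.12 ± 0.14 in NTC lines (edgeR adjusted p of 2.6e-11 and 6.98e-09). IL1A rose by 1.63 ± 0.10 and 1.62 ± 0.13 (1.14e-09 and 1.56e-07), the peptide transporter TAP1 by 1.38 ± 0.07 and 1.18 ± 0.09 (7.11e-11 and 5.97e-08), and the survival gene BCL2L1 by 1.10 ± 0.05 and 0.97 ± 0.07 (6.7e-11 and 3.77e-08). The PTX3 transcript moved the other way, by -0.96 ± 0.08 and -0.98 ± 0.10.

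The second question of the design was whether loss of PURPL changed these genes. With Nutlin-3a, no member was called between PURPL and NTC lines, where 0.00596% of 16768 genes were called, the 1 gene being PURPL. With DMSO, no member was called either, where 0.00601% of 16648 genes were called, again PURPL. These counts are edgeR's quasi-likelihood test on line sums, 4 lines against 2, and DESeq2 called no member as well. At an unadjusted p under 0.05, 3 members differed with Nutlin-3a (NFKBIZ, PTGS2 and SOD2) and 2 with DMSO (NFKBIZ and TRAF1), where 799 of 16768 and 528 of 16648 genes did. NFKBIZ was lower in PURPL lines in both, by 0.33 ± 0.09 with Nutlin-3a and 0.28 ± 0.10 with DMSO on the log2 scale, with edgeR adjusted p of 0.828 and 0.825. It averaged 10.7 ± 1.3 CPM in PURPL lines and 13.5 ± 1.5 CPM in NTC lines with Nutlin-3a (SD, n = 7 and 4), and 8.14 ± 0.65 CPM in PURPL lines and 9.94 ± 1.11 CPM in NTC lines with DMSO (SD, n = 8 and 4). The ranges overlapped in both treatments. PTGS2 was lower in PURPL lines by 0.45 ± 0.19 with Nutlin-3a, at 0.383 to 0.870 CPM in PURPL lines against 0.799 to 1.11 CPM in NTC lines.

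**Figure D4:**
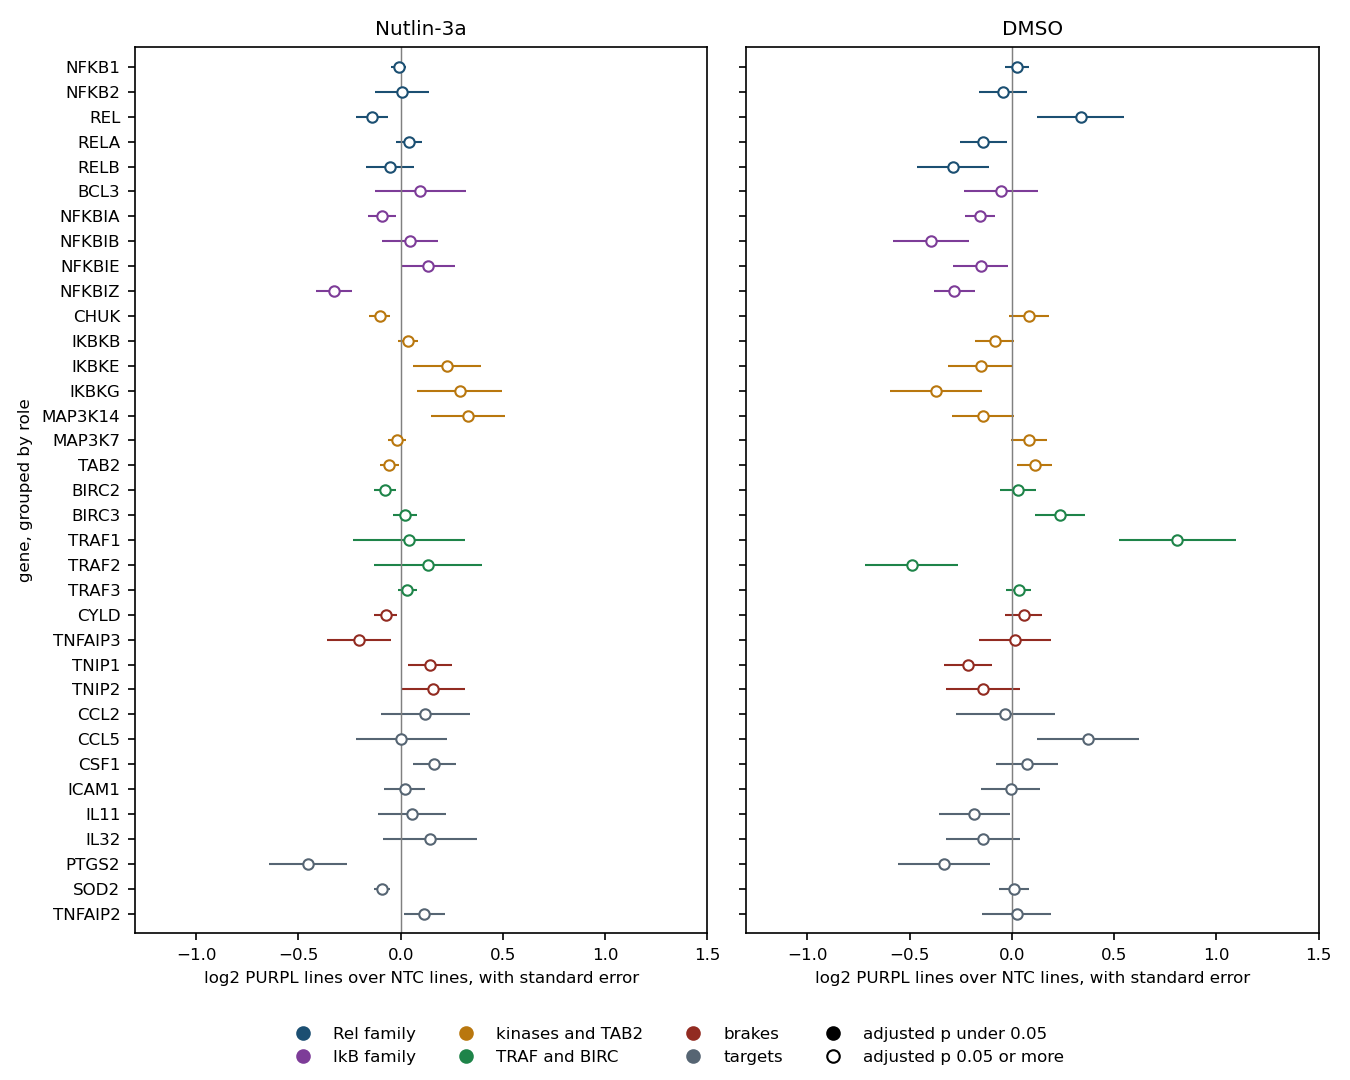
Log2 difference of PURPL lines over NTC lines with its standard error for the 35 tested members, with Nutlin-3a and with DMSO, from sums of each line. No point is filled, since none passed the adjusted threshold, and NFKBIZ lies below 0 in both panels at -0.33 and -0.28.

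The CSF1 response did not differ detectably between the kinds of line: the difference of the log2 responses, PURPL lines minus NTC lines, was 0.09 ± 0.17 (edgeR adjusted p = 0.839). None of the 35 members was called in this test, nor any of the 17106 genes (0%), where 994 genes had an unadjusted p under 0.05, and DESeq2 called no member. Of the 35 members, 2 had an unadjusted p under 0.05, REL (-0.55 ± 0.18) and TNIP1 (0.33 ± 0.14), a share close to that of all genes. Both had an edgeR adjusted p of 0.613, and NTC1 DMSO at harvest 3 held the lowest REL and the highest TNIP1 value of the DMSO libraries. With line NTC2 left out, NTC1 stands alone as the control line and is assumed to vary like the others, and 7 members were then higher and 11 lower in PURPL lines with DMSO, where 17.9% of all genes were called higher and 18.9% lower, 36.8% in all. In the same way 7 members had a higher and 4 a lower response in PURPL lines, where 8.46% of all genes were called higher and 8.24% lower, 16.7% in all. Without harvest 3, 6 members had a higher and 2 a lower response, where 9.33% of all genes were called higher and 4.11% lower, 13.4% in all.

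The library left out of the tests, sg2 with Nutlin-3a at harvest 1, gave member values that followed base composition. Of the 35 tested members, 23 had their highest value of all 24 libraries there and 7 their lowest. All 17 members with at least 55% GC in their longest transcript were higher than in the other sg2 Nutlin-3a library, by a median log2 of 2.19. Of the 10 members under 45% GC, 9 were lower, and the median was -1.02. TRAF2 had 22.8 CPM in it, against 1.46 CPM in the other harvest and at most 6.16 CPM in any other library, and CHUK had 23.5 CPM, against 68.6 CPM in the other harvest. Across the 35 members the log2 ratio of the 2 harvests followed GC content with a Pearson r of 0.949, a description of genes that share these libraries. The same correlation was 0.681 for sg5 Nutlin-3a harvest 3 over harvest 1 and 0.594 for NTC1 DMSO harvest 3 over harvest 1.

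**Figure D5:**
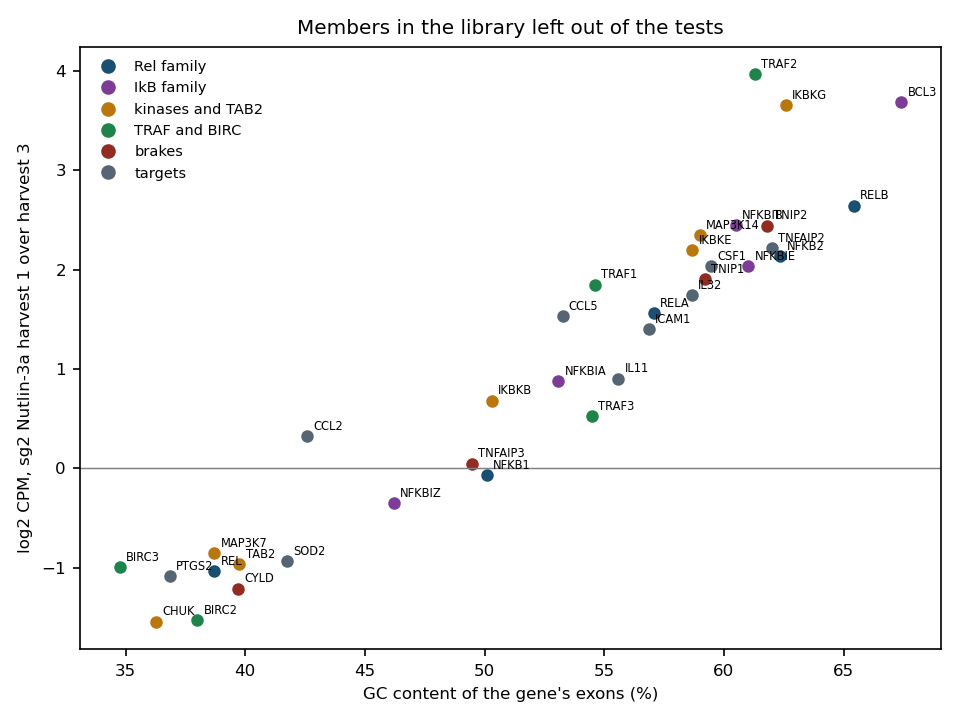
Log2 ratio of sg2 Nutlin-3a harvest 1 over harvest 3 for the 35 tested members, coloured by role. The horizontal axis is the GC content of the exons in each gene's longest transcript. Members above 55% GC lie above 0 and most below 45% GC lie under it, from -1.54 for CHUK to 3.96 for TRAF2.

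With all 24 libraries, 7 members rose and 2 fell in PURPL lines, where 19.5% of all genes rose and 14.7% fell, 34.2% in all, and 3 rose and none fell in NTC lines, where 4.44% rose and 3.30% fell, 7.74% in all. The median over all genes was then 0.05 on the log2 scale in PURPL lines. CSF1 rose by 2.14 ± 0.22 in PURPL lines and 1.72 ± 0.31 in NTC lines, with edgeR adjusted p of 5.14e-06 and 0.00249. Among the 7, TNIP1, NFKBIE and NFKBIZ rose by 0.84, 0.67 and 0.35 in PURPL lines. CHUK and SOD2 fell by 0.50 and 0.44, and IKBKB and TRAF1 rose by 0.28 and 0.81. BIRC3, CYLD, NFKBIA and TRAF3 were no longer called in PURPL lines (adjusted p of 0.0509, 0.624, 0.538 and 0.0501). TRAF2 had a log2 change of 0.36 ± 0.36 in PURPL lines and RELA 0.24 ± 0.17, both opposite in sign to the values without the library. In NTC lines, whose own libraries are the same, BIRC3, CSF1 and NFKBIZ were called again, and CYLD, NFKBIA, SOD2, TRAF1, TRAF2 and TRAF3 were not, with adjusted p of 0.321, 0.377, 0.443, 0.0620, 0.432 and 0.167.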

How the data were processed

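Stranded mRNA libraries were made from the 24 cultures, per the labels' protocols. The authors deposited estimated counts per gene from RSEM, and the submitters' processing notes also name cutadapt, STAR, DESeq2 and hg38. Tool versions and the strand setting of the counting: not given in the sources used here. Between 5.60% and 7.16% of a library's values were not whole (tolerance 1e-09). The 45 second-copy pseudoautosomal rows (0.0222% of counts) were added to the X rows and values were rounded. Coordinates, GC content and overlaps came from GENCODE release 29, in which 58552 IDs were found without version. GC content is that of a gene's longest transcript.

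Counts were filtered with filterByExpr (minimum count 10), scaled by TMM and tested with edgeR 4.0.16 (R 4.3.3), robust quasi-likelihood F test, with Benjamini-Hochberg adjustment over all genes. Responses to Nutlin-3a came from 1 model of the 12 group means over 23 libraries. The guide comparison (PURPL over NTC lines) used sums over the harvests of each line, and the difference of responses on those sums with a term for each line, so those p-values measure the spread between lines. CPM are TMM-scaled. At totals of 66.4 to 92.1 (units of 1e6), 1 CPM is about 66.4 to 92.1 counts. For the PURPL level, all 15 ways to split the 6 lines were enumerated (exact permutation, two-sided). The fits were tested on simulated data.

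Alternatives were RLE scaling, other filters, DESeq2 1.42.0, removal of each library's GC trend, a replicate block, line sums, all 24 libraries and leaving out each harvest, library or line. The members and lists were chosen with earlier results of these data known, as was the library left out. Members called under Nutlin-3a with a log2 change of at least 0.5 and at least 1 CPM, and RELA, NFKB1, NFKBIA and TNFAIP3, are given in full, as are up to 4 genes of each further list with the smallest p; other genes named were chosen after their values were seen.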

Additional observations from a re-analysis of the deposited data

Results flagged for a closer look

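Groups of 4 to 8 libraries were screened for a highest or lowest library far from its neighbours in 140 groups of 35 members. Of these, 18 stood apart, where about 1 in 20, or 7, would do so if groups were independent and their libraries alike. Members share libraries and the groups mix lines, so the excess over 7 tests nothing. Of the 18, 5 fell in sg5 with Nutlin-3a at harvest 3, which had 5.26 CPM of IKBKE, 6.65 CPM of IKBKG, 3.33 CPM of IL32, 26.7 CPM of MAP3K14 and 4.23 CPM of TRAF2, each the highest of the 7 PURPL Nutlin-3a libraries. This library has the highest GC slope of the 23, and its part in these values was not tested.

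Other PURPL libraries that stood apart with Nutlin-3a were sg2 at harvest 3 with 2.79 CPM of CCL2, sg6 at harvest 1 with a low 2.90 CPM of CSF1, and sg5 at harvest 1 with 13.3 CPM of NFKBIZ. Among PURPL libraries with DMSO, sg2 at harvest 1 had 1.13 CPM of BCL3 and 3.05 CPM of CCL2. In the same group sg5 at harvest 3 had 0.872 CPM of CCL5, 17.5 CPM of MAP3K14 and 9.11 CPM of NFKBIE, and sg6 at harvest 1 had a low 26.0 CPM of IKBKB.

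Among NTC libraries with Nutlin-3a, NTC1 at harvest 1 had a low 1.41 CPM of CCL2, NTC2 at harvest 1 a low 6.65 CPM of TNFAIP2, and NTC1 at harvest 3 a high 0.381 CPM of TRAF1. With DMSO, NTC1 at harvest 3 had 3.20 CPM of REL, against 15.8 to 17.0 CPM in the other NTC libraries. In the library left out of the tests, 23 members had their highest value of the 24 libraries.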

How the results depend on the processing

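PURPL lines carry 7 Nutlin-3a libraries and NTC lines 4, and there are only 2 NTC lines for the guide comparisons. For PURPL itself, the log2 difference between PURPL and NTC lines was -4.13 with Nutlin-3a and -3.99 with DMSO, each with an exact two-sided permutation p of 0.0667, the smallest that 15 splits allow. TRAF1 and the targets under 1 CPM are limited by counts.

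Against 7 members up and 4 down in PURPL lines and 5 up and 4 down in NTC lines, all 24 libraries gave 2 down in PURPL lines, and 3 up and 0 down in NTC lines. Removing the GC trend gave 7 down in PURPL lines and 9 up in NTC lines. Leaving out a harvest, library or line gave 4 to 10 up and 3 to 8 down in PURPL lines, and 1 to 7 up and 0 to 10 down in NTC lines. For the guides with DMSO it gave 0 to 7 up and 0 to 11 down, and for the difference of responses 0 to 7 up and 0 to 4 down. Other counts, those of the guides with Nutlin-3a and DESeq2, RLE and filter settings included, stayed within 1.5 times. Harvest differences correlated at -0.547 to 0.585 between 55 pairs of groups, with a median of 0.129 and 28 of them above 0.1. These values do not settle whether harvest numbers pair libraries. A replicate block gave 7 up and 5 down in PURPL lines and 7 up and 4 down in NTC lines, and no member in the guide comparisons. Over all genes, leaving out a harvest, library or line gave 1318 to 3909 up and 1704 to 4244 down in PURPL lines. In NTC lines those ranges were 661 to 2517 up and 480 to 3416 down. The shares of all genes with the GC trend removed or with the replicate block are not given here. None of these member counts can be read as particular to the members.

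Some signs turned, and the cause was not tested. With all 24 libraries the response in PURPL lines was 0.24 for RELA and 0.36 for TRAF2, and the guide difference with Nutlin-3a was -0.077 for BIRC3 and 0.076 for NFKBIA. With the GC trend removed that difference was -0.037 for RELA and -0.013 for TRAF2, and the difference of responses was -0.15 for CSF1, -0.020 for NFKBIA and -0.014 for RELA. NFKB1 was -0.0019 unfiltered and -0.0037 on line sums in NTC lines, 0.015 at 1 CPM in PURPL lines, where RELA was 0.026, and 0.00032 with the replicate block between guides with Nutlin-3a. Leaving out 1 harvest, library or line gave, in NTC lines, -0.046 to 0.10 for IKBKB, -0.086 to 0.08 for NFKB1, -0.21 to 0.30 for NFKBIE and -0.049 to 0.35 for TNIP1. In PURPL lines it gave -0.052 to 0.0082 for NFKB1 and -0.080 to 0.056 for RELA. Between guides with Nutlin-3a it gave -0.018 to 0.065 for BIRC3, -0.021 to 0.013 for NFKB1, -0.0084 to 0.082 for RELA and -0.086 to 0.31 for TRAF2. Between guides with DMSO it gave -0.030 to 0.077 for NFKB1, -0.33 to 0.084 for RELA, -0.11 to 0.11 for TNFAIP3, -0.42 to 0.027 for TNIP1 and -0.88 to 0.051 for TRAF2. For the difference of responses it gave -0.13 to 0.047 for NFKB1, -0.016 to 0.13 for NFKBIA and -0.040 to 0.37 for RELA.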
